A study of Mus musculus with 4 samples.

Results

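The intermediate filament genes of neural and epithelial cells were followed here as a set of 10, picked by name out of the 24421 gene symbols in the count tables. The glial genes Gfap, Vim, Nes and Synm, 4 neuronal genes (Ina, Nefl, Nefm and Nefh) and the epithelial keratin pair Krt8 and Krt18 made up the set, and all 10 were found and counted often enough to be tested. Libraries came from cortical neural stem cells of C57BL/6J embryos at embryonic day 17, grown for 1 day with bFGF and EGF, although the series' design text speaks of brain tissue. The comparison asks how loss of Prrc2b, a proline-rich coiled-coil protein, alters transcript levels in these cells. Control cells had the genotype Prrc2bf/f, in which both Prrc2b alleles carry loxP sites and there is no Cre (2 libraries). The other group, Prrc2bf/f; Nestin-Cre, had the same alleles plus the recombinase Cre (2 libraries). By its name the transgene is driven by nestin regulatory sequence, and Nes, the nestin gene, is one of the 10 genes. The labels do not say whether replicates were separate embryos, litters or pools, so the p-values reflect only how these libraries vary, and that variation may be technical.

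Intermediate filaments are rope-like polymers of coiled-coil rod proteins that give cells mechanical strength, and each cell type builds them from its own subunits. Dividing radial glia polymerize vimentin and nestin, astrocytes add glial fibrillary acidic protein (GFAP), and synemin joins the vimentin network as a large linker-like subunit. Young neurons use alpha-internexin together with the light, medium and heavy neurofilament subunits, which fill axons as they mature. Simple epithelia, the choroid plexus among them, pair the type II keratin 8 with the type I keratin 18 as obligate partners.

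Gene counts per library ran from 25936794 to 28263272. The chi-square per gene between libraries of a group was 1.96 and 2.2, where sampling alone gives 1, and 20.4 to 21.2 between groups. Prrc2b itself stood at 587 and 593 CPM (the gene's count scaled by the gene total of its library) in control, with 576 and 574 CPM in the other group (adjusted p = 0.13). The labels do not say which exon is floxed, and transcripts lacking it would go on giving reads elsewhere, so the total does not check the label. In control, 4 genes of the Y chromosome (Uty, Kdm5d, Eif2s3y and Ddx3y) lay between 6.79 and 24.4 CPM. None had a count in the libraries labelled knockout, and Xist was present in all (1639 ± 40.5 against 2169 ± 64.2 CPM). Both control libraries thus held Y transcripts and Xist together. Genotype, Cre and the sex make-up of the libraries therefore cannot be told apart. As a check of the labelled cell type, and outside the rule for named genes, the stem cell factor gene Sox2 stood at 444 ± 18.9 and 444 ± 0.714 CPM and the radial glial lipid carrier gene Fabp7 at 1354 ± 26.4 and 1332 ± 3.37 CPM in control and labelled knockout (mean ± SD, n = 2). The neuronal tubulin gene Tubb3 was present too, at 406 ± 7.95 and 487 ± 8.46 CPM.

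In the libraries labelled knockout 3 of the 4 glial filament genes were lower, 1 of the 4 neuronal genes was lower, and both keratin genes were higher. Of the 10 genes 4 fell (Gfap, Vim, Nes and Nefm), 2 rose (Krt8 and Krt18) and 4 did not pass (Synm, Ina, Nefl and Nefh) at an adjusted p under 0.05 in the edgeR quasi-likelihood test. Among all 15012 genes tested, 33.1% passed, 15.1% as higher and 18.1% as lower, so a pass alone sets no gene of the set apart. With upper quartile scaling the balance over all genes turned from 2263 higher and 2711 lower to 2939 higher and 2288 lower, and the calls of the 10 genes were the same in number. The groups of libraries did not overlap for 8 of the 10 genes, against 65.1% of all genes tested. The median log2 fold change (labelled knockout over control) was -0.13 over the 10 genes and 0.0047 over all genes tested, where the median absolute value was 0.12. On the log2 scale, Gfap lay at percentile 1.11 of all fold changes tested, Krt18 at 99.8 and Krt8 at 99.9.

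**Figure D1:**
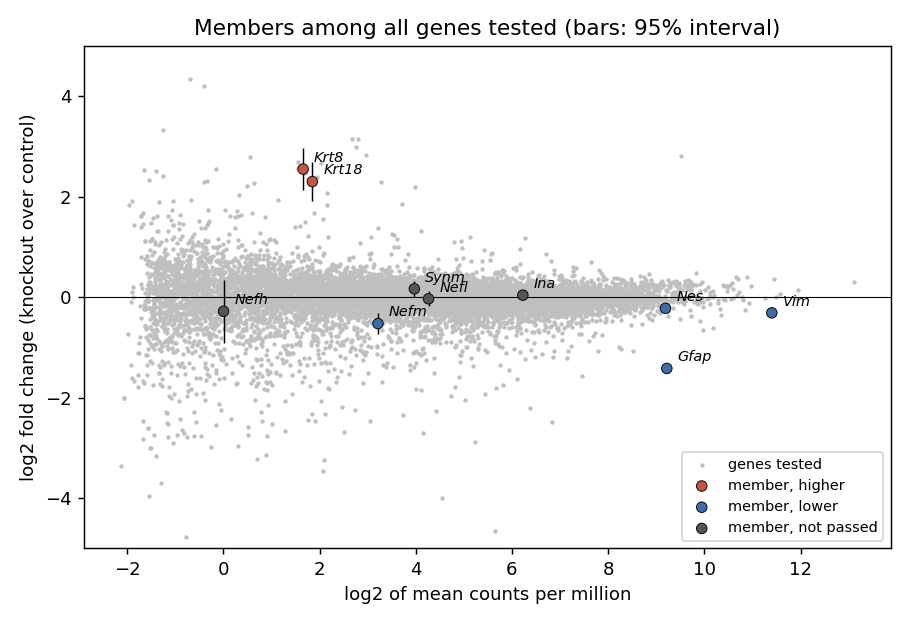
Log2 fold change (libraries labelled knockout over control) against log2 mean CPM for the 15012 genes tested (grey) and the 10 intermediate filament genes (coloured by call, bars showing the 95% interval); 7 genes beyond 5 on the log2 scale lie outside the frame. Gfap sits below and the keratins Krt8 and Krt18 above most genes, while Ina, Nefl and Synm lie close to 0.

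Gfap, the filament gene of astrocytes and of reactive glia, fell most. It stood at 857 and 877 CPM in the control libraries and at 328 and 323 CPM in those labelled knockout, from 22703, 24778, 9253 and 8379 counts. Every control library was thus far above both others, and libraries within a group differed little. The log2 fold change was -1.42 ± 0.02 (SE, adjusted p = 1.6e-34), a ratio of 0.374 with a 95% interval from 0.362 to 0.386. In these bulk samples, fewer cells of a type and less RNA per cell cannot be told apart. The gene spans 102887336 to 102900912 on the minus strand of chromosome 11 (GRCm38, the assembly of mm10).

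Over the 4 libraries, the genes whose pattern lay nearest to that of Gfap, out of 12343 candidates and by Euclidean distance of centred log2 CPM, were Rgs16 (0.035), Pdgfrb (0.064) and Islr (0.078). Rgs16, a regulator of G protein signalling, stood at 89.7 and 90.3 CPM against 33.9 and 32.6 CPM, and Pdgfrb, the PDGF receptor of mural cells and fibroblasts, went from 7.99 ± 0.254 to 2.88 ± 0.0664 CPM. Their log2 fold changes lay between -1.48 and -1.38. With 4 libraries that differ little within a group, a small distance mostly reflects a like fold change and does not show shared regulation.

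The upstream sequence of Gfap is shown because its transcript fell most and because STAT3, whose motif was searched, is a known activator of Gfap. RefSeq (GRCm38.p6) held this window for 7 of the 10 genes. It covers chr11:102897181-102897450 on the minus strand, 250 bases before to 20 after the listed start, with capitals marking the one match to the STAT motif TTCNNNGAA:

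Gfap: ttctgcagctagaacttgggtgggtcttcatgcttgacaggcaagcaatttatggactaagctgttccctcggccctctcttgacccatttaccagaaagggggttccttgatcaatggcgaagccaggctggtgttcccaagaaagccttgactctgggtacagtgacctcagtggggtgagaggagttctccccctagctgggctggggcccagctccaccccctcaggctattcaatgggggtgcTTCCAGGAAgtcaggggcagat

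The match began 2 bases before the listed start, which itself lies inside the longer GENCODE gene. On either strand, 7.58% of all 32851 windows of this length held this motif, and none of the other 6 filament genes with a window did. A match of letters is a description and does not show that a factor binds there. Whether STAT3 bears on the fall of Gfap was not tested.

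Genes of cytokine signalling and of the factors known to drive Gfap and Nes moved in both directions. Of 28 such regulators, all tested, 14 fell and 7 rose, with a median of -0.08. Those with the smallest p were Socs3, the STAT3 feedback inhibitor (43.8 ± 0.503 to 22.1 ± 0.736 CPM), and Osmr, the oncostatin M receptor (21.5 ± 0.468 to 7.92 ± 0.469 CPM). Il6st, the shared receptor chain gp130, fell as well (113 ± 1.45 to 88.7 ± 0.883 CPM). Stat3, named after its values were seen, stood at 362 and 365 CPM against 319 and 315 CPM, a fall with an adjusted p of 2.5e-08.

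Vim, the vimentin gene of radial glia, astrocytes and mesenchymal cells, was the most abundant member. Its level was 2993 and 2994 CPM in control, and 2417 and 2425 CPM with the Nestin-Cre genotype. The gap between groups was many times the spread within either. The ratio was 0.805 with a 95% interval from 0.785 to 0.825 (log2 fold change -0.31 ± 0.02, adjusted p = 1.5e-17). Nearest to Vim in pattern were the actin crosslinker gene Flna (distance 0.0077), Cttnbp2nl (0.0090) and the chloride cotransporter gene Slc12a2 (0.0096), each with a log2 fold change between -0.32 and -0.31. Its gene runs from 13573927 to 13582826 on chromosome 2, plus strand.

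Nes encodes nestin, the filament of dividing progenitors. It stood at 630 and 627 CPM in control and at 541 CPM in both libraries labelled knockout, so the groups did not overlap. Its ratio of 0.856 (95% interval 0.830 to 0.884) came with a log2 fold change of -0.22 ± 0.02 (adjusted p = 1.6e-10). That is less than a 1.2-fold change, and in a test against 1.2-fold Nes did not pass (adjusted p = 1, against 2.1e-17 to 1 over 15 alternatives). By its name the transgene carries nestin regulatory sequence, and whether the transgene itself bears on the level of Nes was not tested. On chromosome 3 the Nes gene runs from 87971078 to 87980451, plus strand.

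Synm, the synemin gene, was the glial member that did not fall. Control libraries had 14.2 and 15.2 CPM, those labelled knockout 16.7 and 16.5 CPM. Both latter values were above both control values, yet the log2 fold change of 0.16 ± 0.08 did not pass (adjusted p = 0.11), and its ratio of 1.12 had a 95% interval from 1.002 to 1.25.

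**Figure D2:**
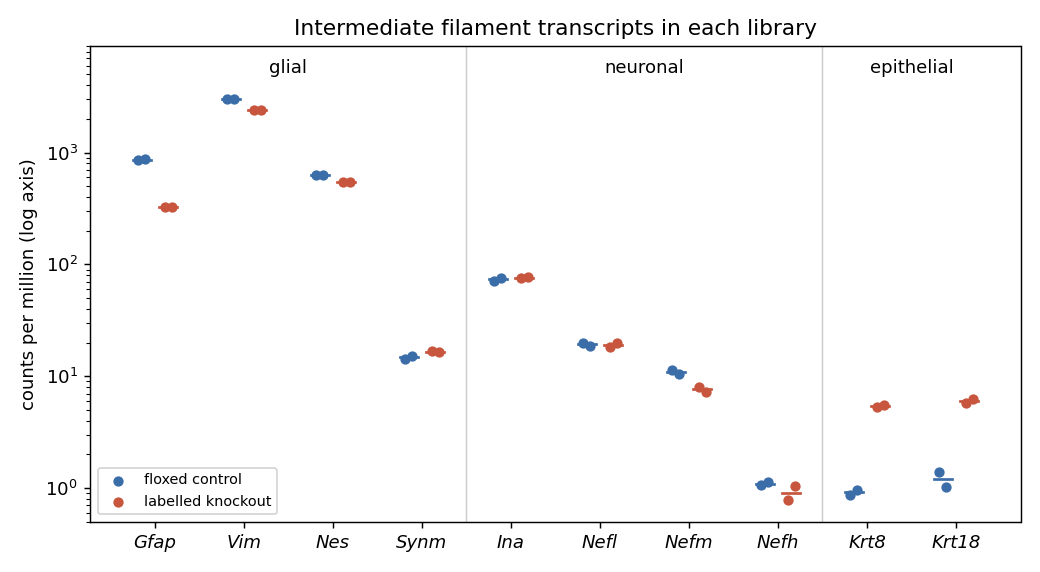
CPM of each of the 10 genes in each library on a log axis, with points for libraries, lines for group means (n = 2) and colour for the group. Gfap, Vim, Nes and Nefm are lower and Krt8 and Krt18 higher in both libraries labelled knockout, whereas the points of Ina and Nefl overlap.

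Because a ratio of 2 genes inside a library does not depend on how libraries are scaled, the make-up of the glial filament pool was also read that way. The ratio of Gfap to Vim counts was 0.286 and 0.293 in control and 0.136 and 0.133 in the libraries labelled knockout. On the log2 scale this was a difference of -1.11 between group means. Nes to Vim was 0.210 and 0.209 against 0.224 and 0.223, a difference of 0.09, and Synm to Vim differed by 0.48. The 3 ratios did not overlap between groups, so Gfap fell by more than Vim in these libraries and Nes by less. With 2 against 2 libraries the smallest two-sided exact permutation p is 0.333, so the ratios were described and not tested.

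In all, the 4 glial genes summed to 4494 and 4513 CPM in control and to 3303 and 3306 CPM in the libraries labelled knockout, a ratio of 0.734. Markers of other and related cell types moved in the same libraries. Of 12 astrocyte markers 11 were tested, of which 8 fell and 2 rose, and their summed level went from 4956 to 5005 CPM in control down to 4202 to 4225 CPM. Those with the smallest p were the matricellular gene Sparcl1 (832 ± 1.44 to 618 ± 2.11 CPM), the water channel gene Aqp4 (147 ± 2.38 to 96.2 ± 0.557 CPM), the glutamate transporter gene Slc1a3 (1459 ± 25.5 to 1144 ± 3.46 CPM) and the receptor gene Fgfr3, which rose (128 ± 1.12 to 193 ± 3.96 CPM). Of 12 radial glial markers, which include Slc1a3 again, 6 fell and 2 rose (6607 to 6711 against 5770 to 5789 CPM summed). Tnc, a matrix glycoprotein gene, and Glul, the glutamine synthetase gene, fell (-0.65 ± 0.02 and -0.30 ± 0.03), and the Notch target Hes5 rose (0.89 ± 0.06).

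All 10 genes on a list known from reactive glia fell, with a median of -1.52 and a summed level of 836 to 859 CPM in control against 352 to 354 CPM. Led by Lcn2 (lipocalin), Serpina3n (a protease inhibitor with close paralogs), S1pr3 (a sphingosine phosphate receptor) and Cd44 (the hyaluronan receptor), that list was written with the fall of some of its genes already known, so its direction is no independent evidence. Some mural, fibroblast and meningeal cells also make vimentin. Markers of these cell types summed to 198 to 203 CPM in control and 80.1 to 85.0 CPM in the libraries labelled knockout, with 8 of 12 tested fallen and 2 risen. The smallest p of this list belonged to the collagen genes Col3a1, Col1a1 and Col1a2 (-2.88 ± 0.07, -2.04 ± 0.06 and -0.95 ± 0.06) and the meningeal gene Ogn (2.07 ± 0.17). For microglia 5 of 6 tested fell and none rose, at 6.49 to 7.85 against 2.51 to 3.33 CPM summed. None of these markers was at 0 in all libraries. Their part in the fall of Gfap, Vim and Nes was not tested.

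Among the neuronal members only the medium neurofilament gene passed. Nefm stood at 11.4 and 10.5 CPM in control and at 7.98 and 7.25 CPM in the libraries labelled knockout, from 302, 297, 225 and 188 counts. Both libraries labelled knockout lay below both controls. The ratio was 0.694 with a 95% interval from 0.599 to 0.804 (log2 fold change -0.53 ± 0.10, adjusted p = 0.00011).

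Nefl, the light subunit on which neurofilament assembly depends, stood at 20.01 and 18.8 CPM against 18.3 and 19.8 CPM, and the groups overlapped. Its ratio of 0.977 had a 95% interval from 0.881 to 1.08 (adjusted p = 0.77), and its log2 fold change of -0.03 ± 0.07 changed sign without control replicate 1 (0.011) and without knockout replicate 1 (0.024). Ina, which encodes alpha-internexin, the filament of newly made neurons, overlapped as well, at 71.2 and 76.1 CPM against 74.8 and 77.3 CPM. The interval of its ratio ran from 0.969 to 1.09 (log2 fold change 0.04 ± 0.04, adjusted p = 0.52), and without control replicate 1 the log2 value was -0.0090. Nefh, the heavy subunit of mature axons, was the scarcest member with 28, 32, 22 and 27 counts, or 1.06 and 1.13 CPM against 0.78 and 1.04 CPM. That depth leaves an interval from 0.534 to 1.27 (adjusted p = 0.52), so no difference was detectable for Nefh.

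The neuronal genes together summed to 104 and 107 CPM in control and to 102 and 105 CPM in the other group. Inside libraries, Nefm to Nefl was 0.570 and 0.559 in control and 0.436 and 0.366 in the libraries labelled knockout, a log2 difference of -0.50 without overlap. Nefh to Nefl was 0.0528 and 0.0603 against 0.0426 and 0.0525, a log2 difference of -0.25. That ratio did not overlap either, by a narrow margin, and rests on 22 to 32 counts of Nefh per library. Ina to Nefl overlapped, with 3.56 and 4.05 in control and 4.09 and 3.90 in the libraries labelled knockout.

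Nefl and Nefm are neighbours on chromosome 14, with start sites 41.0 kb apart on opposite strands (Nefl 68083863 to 68089095, plus; Nefm 68082590 to 68124846, minus). In GENCODE M21 a long Nefm transcript runs across Nefl, and 1108 bases of exon belong to both, 32.8% of Nefl's exons and 19.2% of Nefm's. Ina shares 14.1% of its exon bases with Nt5c2 on the other strand. No source used here gives the strand setting of the counting, and reads from shared bases cannot be assigned with certainty.

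**Figure D3:**
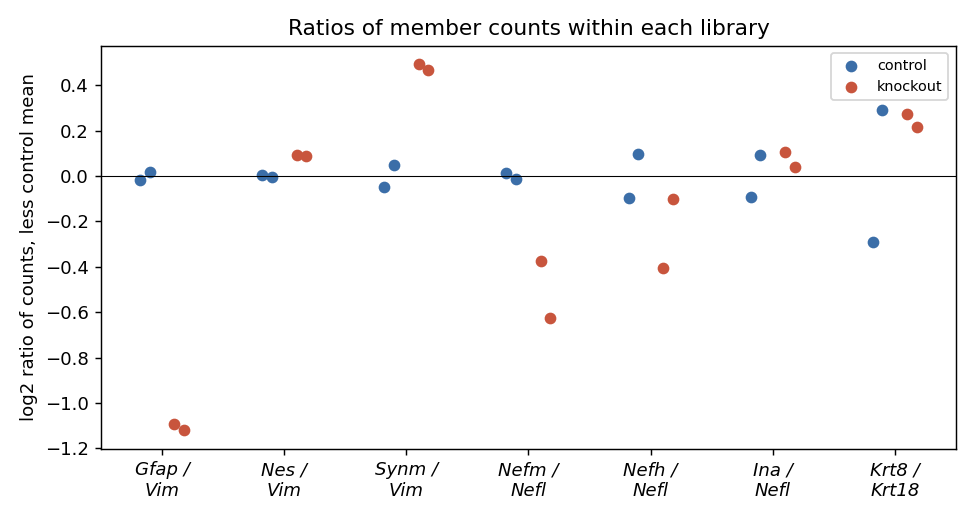
Log2 ratio of the counts of 2 members within each library, less the control mean of that ratio, with points for libraries and colour for the group. The ratios Gfap to Vim, Nes to Vim, Synm to Vim, Nefm to Nefl and Nefh to Nefl do not overlap between groups, whereas Ina to Nefl and Krt8 to Krt18 do.

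General neuronal markers did not share the direction of Nefm. Of 12 neuron markers 7 rose, none fell and 5 did not pass, and their summed level was 2131 to 2148 CPM in control and 2411 to 2442 CPM in the libraries labelled knockout. The smallest p belonged to the microtubule regulator gene Stmn2 (371 ± 3.05 to 490 ± 13.8 CPM), the transcription factor gene Neurod6 (109 ± 1.46 to 149 ± 1.56 CPM), Tubb3, and the growth cone gene Gap43 (264 ± 8.86 to 308 ± 2.53 CPM). Of 18 axonal cytoskeleton genes, which include Stmn2, Tubb3 and Gap43 again, 7 rose and 7 fell (median -0.03). Beside Stmn2 and Tubb3, the related gene Stmn3 rose (155 ± 5.27 to 203 ± 7.25 CPM), and the microtubule-associated protein gene Map1b fell (1072 ± 12.4 to 939 ± 6.58 CPM). Whether Nefm differs from other neuronal genes was not tested.

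Both keratin genes were scarce in control and rose several-fold. Krt8 stood at 0.868 and 0.955 CPM in control and at 5.28 and 5.51 CPM in the libraries labelled knockout, from 23, 27, 149 and 143 counts. Krt18 stood at 1.40 and 1.03 CPM against 5.74 and 6.25 CPM, from 37, 29, 162 and 162 counts. For either gene both libraries labelled knockout were far above both controls. The ratio was 5.85 for Krt8 (95% interval 4.38 to 7.82, log2 fold change 2.55 ± 0.21, adjusted p = 6.9e-13) and 4.92 for Krt18 (3.76 to 6.45, 2.30 ± 0.19, adjusted p = 1.5e-12). The 2 partners moved in parallel. Krt8 to Krt18 was 0.622 and 0.931 in control and 0.920 and 0.883 in the libraries labelled knockout, so the ratio overlapped between groups.

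Krt8 and Krt18 are neighbours on chromosome 15, with start sites 23.7 kb apart (Krt8 101996698 to 102004482, minus; Krt18 102028180 to 102032027, plus). Their windows before the listed starts, at chr15:102004323-102004592 (minus strand) and chr15:102027966-102028235 (plus strand), are shown because the 2 genes rose together. Capitals mark matches to the TATA box letters TATAAA on either strand:

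Krt8: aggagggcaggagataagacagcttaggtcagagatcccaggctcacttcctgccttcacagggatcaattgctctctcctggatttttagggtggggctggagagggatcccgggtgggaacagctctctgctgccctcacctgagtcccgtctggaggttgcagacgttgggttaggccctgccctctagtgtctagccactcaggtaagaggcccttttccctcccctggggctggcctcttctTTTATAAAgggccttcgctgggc

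Krt18: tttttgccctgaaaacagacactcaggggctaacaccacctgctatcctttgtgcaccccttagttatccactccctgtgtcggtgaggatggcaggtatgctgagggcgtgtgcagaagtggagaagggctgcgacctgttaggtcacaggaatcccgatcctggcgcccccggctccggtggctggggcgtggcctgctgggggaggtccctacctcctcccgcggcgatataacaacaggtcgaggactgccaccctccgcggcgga

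For both Krt8 and Krt18 the listed start lies inside the GENCODE gene, downstream of the start site used for the distance above. In Krt8 a match on each strand overlapped at the listed start (first bases 3 and 1 before it). Of all windows, 12.9% held these letters. Krt18 held neither these letters nor the STAT motif, and none of the other motifs searched. Those were the box CCAAT, which 35.4% of all windows held, and the AP-1 motif TGANTCA, held by 7.23%. Other genes within 100 kb moved far less. Of these, 3 were tested, with log2 fold changes from -0.0097 to 0.54. The translation initiation factor gene Eif4b (0.12 ± 0.02, adjusted p = 2.7e-05) and the focal adhesion gene Tns2 (0.54 ± 0.12, adjusted p = 0.00045) rose, and Spryd3 did not pass.

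Genes of choroid plexus epithelium, a tissue that makes both keratins, rose in the same libraries. Of 14 such genes 11 rose and none fell, with a median of 2.16, and the summed level was 255 to 261 CPM in control and 1425 to 1438 CPM in the libraries labelled knockout. Ttr, the secreted thyroid hormone carrier, made up most of it (182 ± 5.15 to 1283 ± 13.3 CPM). Sostdc1, a BMP antagonist gene, Clic6, a chloride channel gene, and Folr1, the folate receptor gene, followed (2.83 ± 0.14, 2.29 ± 0.11 and 2.99 ± 0.15). The 3 that did not pass were Otx2 (0.02 ± 0.07), Slc4a2 (0.04 ± 0.05) and Prlr (-0.86 ± 0.39). This list too was written with those rises known. The 3 genes nearest to Krt8 in pattern were Gmnc, a regulator of multiciliated cells (distance 0.13), Tmem72 (0.15) and Clic6 (0.22). The last 2 are on the choroid plexus list. Log2 fold changes of the 3 genes (2.29 to 2.67) lay near that of Krt8, which is mostly what a small distance over 4 libraries reflects. No choroid plexus marker was at 0 in all libraries, and the part of these cells in the rise of the keratins was not tested.

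Other epithelial genes gave a mixed picture at low levels. Of 17 partners of these keratins in epithelia 9 were counted often enough to test, and 4 rose and 1 fell. The tight junction genes Cldn1 (5.08 ± 0.336 to 11.6 ± 0.80 CPM) and Cldn2 (1.69 ± 0.465 to 4.79 ± 0.552 CPM, also a choroid plexus marker) rose. So did Dsp, whose product desmoplakin ties keratin filaments to desmosomes (1.12 ± 0.18 to 2.40 ± 0.119 CPM), and the adhesion gene Epcam (0.527 ± 0.105 to 1.04 ± 0.00907 CPM), named because the count is small. The desmosomal plaque gene Pkp2 fell (4.41 ± 0.211 to 2.85 ± 0.665 CPM). For multiciliated ependymal markers 1 of 8 tested rose (Gmnc) and 1 fell (Foxj1, the motile cilia regulator, 33.4 ± 1.47 to 24.6 ± 0.501 CPM), at 44.9 to 47.3 against 40.4 to 41.3 CPM summed.

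Compared per length (CPM per kilobase of merged exon), the order of the members in control was Vim (631 ± 0.19), Gfap (206 ± 3.30), Nes (97.9 ± 0.358), Ina (22.7 ± 1.09), Nefl (5.74 ± 0.255), Nefm (1.89 ± 0.109), Synm (1.86 ± 0.0908), Krt18 (0.843 ± 0.182), Krt8 (0.466 ± 0.0315) and Nefh (0.274 ± 0.0133). Nefm and Synm did not differ beyond their spread on this length, but did with the longest coding transcript as the length (2.98 ± 0.171 against 1.89 ± 0.0921). In the libraries labelled knockout both keratins had passed Synm and Nefm, with Krt18 at 4.17 ± 0.247, Krt8 at 2.76 ± 0.0833, Synm at 2.09 ± 0.0207 and Nefm at 1.32 ± 0.0891 per kilobase. Vim led in both groups (510 ± 1.2 in the libraries labelled knockout). Gfap (77.2 ± 0.838) fell just below Nes (84.3 ± 0.0358) there. That last change of place rests on the length used too, since with the longest coding transcript Gfap stayed above Nes (123 ± 1.34 against 88.3 ± 0.0375). As a share of the summed per-length level of all 10 genes, Gfap went from 21.04% and 21.4% in the control libraries to 10.9% and 10.7%, Vim from 65.3% and 65.0% to 71.7% in both, and Krt8 from a mean of 0.0481% to 0.387%.

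Most other intermediate filament genes differed little or were hardly counted. Of 29 further genes 14 could be tested, 3 rose and 2 fell (median -0.01). Lmna, the A-type nuclear lamin gene, fell (61.1 ± 0.924 to 45.2 ± 0.329 CPM), as did Iffo2, an intermediate filament family orphan (68.4 ± 1.01 to 45.3 ± 3.4 CPM). Its paralog Iffo1 rose (45.7 ± 0.339 to 53.6 ± 2.97 CPM), and so did the B-type lamin gene Lmnb1 (308 ± 4.51 to 328 ± 4.59 CPM) and, named because the count is small, the keratin-like gene Krt222 (1.12 ± 0.129 to 1.88 ± 0.202 CPM). The 7 keratin genes Krt5, Krt6a, Krt9, Krt13, Krt14, Krt16 and Krt79, most of them of stratified epithelia, had 0 counts in every library, which allows up to 0.106 to 0.116 CPM each (3 counts, counting error only).

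Among proteins that link, fold or degrade filaments, falls were more frequent than rises. Of 18 genes, all tested, 9 fell and 3 rose (median -0.23). Plec, whose product plectin crosslinks vimentin, GFAP and keratin filaments to the rest of the cytoskeleton, fell from 68.6 ± 1.05 to 36.1 ± 1.85 CPM (adjusted p = 1.3e-18). The small heat shock protein gene Hspb8 (22.9 ± 0.71 to 9.19 ± 0.344 CPM), its co-chaperone partner Bag3 (57.3 ± 2.46 to 38.3 ± 0.388 CPM) and the plakin gene Dst (352 ± 4.32 to 289 ± 0.228 CPM) fell as well. The 3 that rose, named because the count is small, were Dsp, the plakin gene Eppk1 (0.419 ± 0.0583 to 1.15 ± 0.225 CPM) and the small heat shock protein gene Cryab (3.85 ± 0.0472 to 6.02 ± 0.114 CPM). Of 16 enzymes tested that modify filament proteins 3 fell, namely Padi2, which citrullinates GFAP and vimentin (21.7 ± 0.636 to 12.6 ± 1.00 CPM), and the kinase genes Rock2 and Pak2 (-0.15 ± 0.03 and -0.12 ± 0.03). One rose, the Cdk5 activator gene Cdk5r1 (0.10 ± 0.03).

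**Figure D4:**
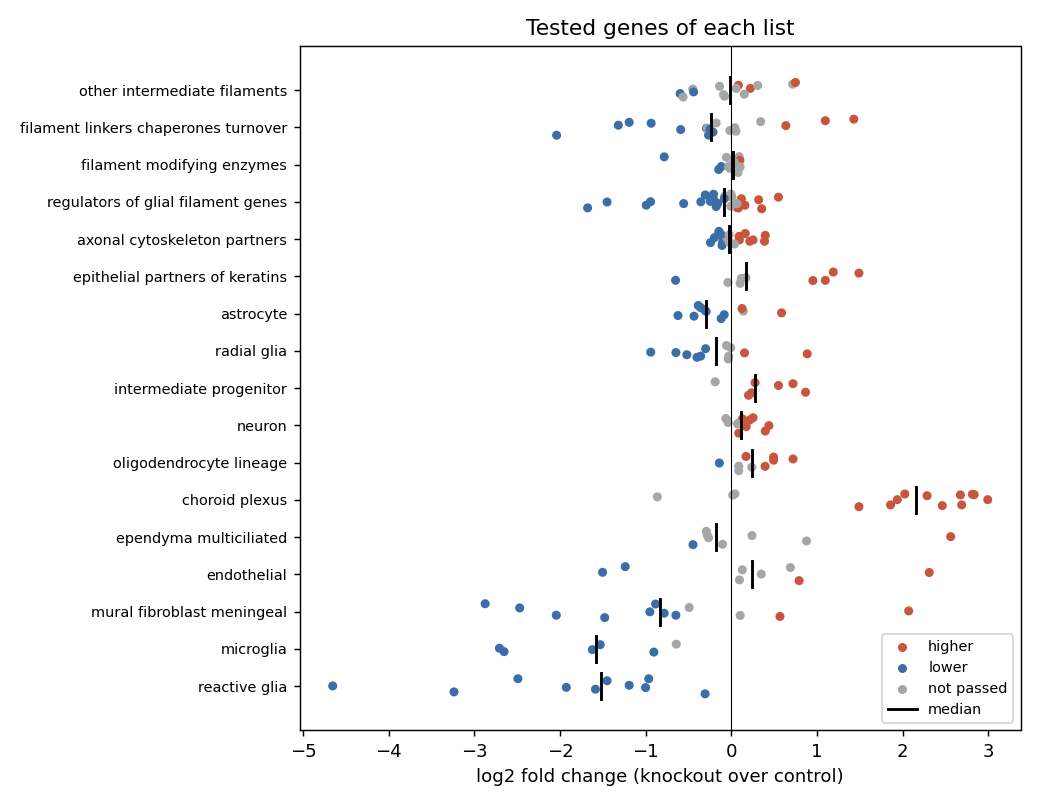
Log2 fold change (libraries labelled knockout over control) of each tested gene in the 17 lists, coloured by call, with a black line at the list median. The choroid plexus list lies mostly to the right (median 2.16) and the reactive glia list to the left of 0 (median -1.52), while the lists of other filament genes and axonal partners centre near 0.

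The 3 remaining lists hold markers of other cell types, whose presence in the culture bulk counts do not establish. Of 7 intermediate progenitor genes tested 6 rose and none fell (271 to 275 against 385 to 387 CPM summed), of 9 oligodendrocyte lineage genes 5 rose and 1 fell (1441 to 1485 against 1606 to 1644 CPM), and of 8 endothelial genes tested 2 rose and 2 fell (21.7 to 21.97 against 15.4 to 17.7 CPM). The Notch ligand genes Dll1 and Dll3 (0.87 ± 0.04 and 0.72 ± 0.06) led the first list and the receptor gene Gpr17 and the NG2 gene Cspg4 (0.72 ± 0.05 and 0.49 ± 0.04) the second. Outside the naming rule, the intermediate progenitor gene Eomes did not pass (2.00 ± 0.531 to 1.76 ± 0.078 CPM). The 1 oligodendrocyte lineage gene that fell was Olig2 (-0.14 ± 0.03). The part of these cell types in the members' differences was not tested.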

How the data were processed

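Per the labels' protocols, poly(A) RNA of cultured cortical cells was made into dUTP-marked libraries and sequenced as read pairs. The submitters' processing notes name mm10 and, without giving their roles, DESeq2 1.26.0, HTSeq 0.12.4 and HISAT2 2.2.1. Each deposited table holds whole-number counts for every gene symbol, not normalized. The 5 summary lines of unassigned reads (25.2% to 26.1% of entries) were left out. CPM used the gene total of each library.

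edgeR 4.0.16 in R 4.3.3 (filterByExpr, trimmed mean of M values, quasi-likelihood F test with legacy turned off) was fitted to all genes, with Benjamini-Hochberg adjustment over 15012 genes and a threshold of 0.05. SE was taken as the size of the log2 fold change divided by the root of F. The fit was tested on simulated counts. Exons and coordinates are from GENCODE M21. Alternatives used DESeq2 1.42.0, limma 3.58.1 and other scalings, filters, thresholds, a replicate block and each library left out.

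The members and lists were chosen with earlier results of these data known. Genes named are the members, up to 4 tested genes per list with the smallest p, the label checks and the 3 genes nearest in pattern to Gfap, Vim, Nefl and Krt8 (mean log2 CPM of at least 1, no predicted genes). Those near Nefl (Fam175b, Mospd2 and Med24, distances of 0.0096 to 0.016) did not pass the test. One listed symbol, Oga, was not matched. One gene that the naming rule picks is not reported here. The window and motifs were chosen after values were seen.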

Additional observations from a re-analysis of the deposited data

How the results depend on the processing

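The number of members called higher was 2 under all 15 alternatives, and the number called lower was 4 in all but the test against a 1.2-fold change, where it was 3 because Nes missed the threshold. Of the members not called, Ina changed sign without control replicate 1 (-0.00903), and Nefl without control replicate 1 (0.0113) and without knockout replicate 1 (0.0240). Over all genes, DESeq2 called 882 higher and 1495 lower of 19264, a threshold of 0.01 gave 1490 higher, and the test against 1.2-fold gave 279 higher and 760 lower, against 2263 and 2711. The cause of the lower DESeq2 counts was not tested. Over the libraries left out in turn, Ina ran from -0.00903 to 0.0874 and Nefl from -0.0909 to 0.0240. Leaving out a library leaves a group with 1, which is then assumed to vary like the other group.

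The replicate numbers are shared by the groups, but same-numbered libraries did not deviate together (correlation of deviations -0.016 over 15012 genes). With a replicate block 2443 genes were higher and 2881 lower, and no member's call changed. Depth limits Nefh, Krt8 and Krt18, whose lowest libraries held 22, 23 and 29 counts. Overlapping exons limit Nefl, Nefm and Ina, and a processed pseudogene in GENCODE, Krt8-ps, could take some Krt8 reads. With 2 libraries per group, intervals rest on a spread borrowed from all genes. Adding 0.5 to each count moved no within-library ratio beyond the spread between libraries.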
